A study of Mus musculus with 6 samples.

Results

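The 2 receptors for tumour necrosis factor (TNF) and 8 genes of the complex that forms on them were followed in Paneth cells (PCs), which sit at the bottom of crypts in the small intestine and release antimicrobial granules. The genes were listed by symbol, with earlier results of these data known. They were found by Ensembl identifier, which gave 10 of the 55414 genes in the count table. They were the receptors Tnfrsf1a and Tnfrsf1b, the adaptors Tradd, Traf1, Traf2 and Traf3, the kinases Ripk1 and Map3k7, the ubiquitin ligase Birc2 and the caspase-8 regulator Cflar. All 10 had a row in the table, and 9 had enough counts to be tested. PCs had been sorted from the small intestine of C57BL/6J mice that all lacked Ifnar1, which encodes a chain of the receptor for type I interferons. There were 3 mice injected with phosphate-buffered saline (PBS) and 3 injected with TNF, each giving 1 library, and tissue was taken 15 h later in both groups. No library came from mice with an intact Ifnar1, so every value below holds for the knockout background. The labels give no dose, route, age, sex, litter or sequencing batch, and do not describe the Ifnar1 allele.

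TNF acts through a pair of receptors. TNFR1, the product of Tnfrsf1a, is found on most cell types and carries a death domain, through which it gathers TRADD, RIPK1, TRAF2 and the cIAP ligases. Ubiquitin chains built in this complex bring in TAK1, the product of Map3k7, and the IKK kinases, which release NF-kB. When ubiquitination or NF-kB fails, RIPK1 can move to a complex with caspase-8, where cFLIP, the product of Cflar, restrains cell death. TNFR2, the product of Tnfrsf1b, lacks a death domain, binds TRAF proteins directly and is best known from immune and endothelial cells. TRAF3 holds back the alternative NF-kB pathway. In the gut epithelium, excess TNF signalling is known for crypt damage and loss of PCs.

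Promoter sequence was read for the members, since several of the pathway's own genes are known NF-kB targets. The upstream bases of Traf3 and Tnfrsf1b are shown because these were the members with the highest values after TNF relative to PBS, and a site of Map3k7 because it was the only other member with a match. The motif searched was GGGNN followed directly by TTTCC (N is any base) on both strands, a common form of the NF-kB site, within 250 bases before the RefSeq start. It was chosen after results were known, and its matches are printed in capitals. Sequences are from RefSeq, read 5′ to 3′ on the strand of the gene, and positions are those of their exact match in GRCm39.
Traf3, chr12:111132554-111132803, plus strand: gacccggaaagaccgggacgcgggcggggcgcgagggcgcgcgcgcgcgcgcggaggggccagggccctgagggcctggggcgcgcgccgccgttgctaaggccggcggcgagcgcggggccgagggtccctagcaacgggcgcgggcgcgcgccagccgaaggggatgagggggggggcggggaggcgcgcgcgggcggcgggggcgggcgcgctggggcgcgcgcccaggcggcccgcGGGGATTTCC
Tnfrsf1b, chr4:144973478-144973690, minus strand: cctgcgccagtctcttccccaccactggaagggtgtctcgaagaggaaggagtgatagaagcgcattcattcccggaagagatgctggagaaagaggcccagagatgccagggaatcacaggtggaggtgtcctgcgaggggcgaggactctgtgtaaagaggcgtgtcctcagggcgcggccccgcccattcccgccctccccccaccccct
Map3k7, chr4:31964005-31964034, plus strand: ccccgggtcaGGAAATTCCCcgctcgggtc
The match of Traf3 began 10 bases before the RefSeq start. In the annotation of GRCm39, the last 28 bases of its stretch lay in an exon of Traf3. The Map3k7 match began 92 bases before the RefSeq start, read on the opposite strand, within an annotated exon of Map3k7. The Tnfrsf1b stretch held no match and lay outside the exons of Tnfrsf1b, but within an exon of Gm68886, a long non-coding RNA gene on the other strand. Among the members, 9 had an entry in the sequence table and 2 of their 11 windows held the motif, while 464 of all 32851 windows did, or 1.41%. Of the other genes of the pathway listed further on, 8 of 63 with an entry had a match, among them Tnfaip3 and Nfkbia. A match is a run of letters and says nothing here about binding.

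Libraries held 12747484 to 17039511 counts, so that 3 counts, the limit that a count of 0 allows, equal 0.147 to 0.255 CPM (counts relative to TMM-scaled library size). These limits cover counting error only. Before any comparison, TNF replicate 1 stood apart from its group. Across genes, its log2 CPM correlated at 0.898 and 0.903 with the other TNF libraries and at 0.951 to 0.955 with the 3 PBS libraries, whereas TNF replicates 2 and 3 correlated at 0.966 with each other. It thus lay nearer to PBS than to the group it is labelled with, and results are given with and without it. Because it was singled out by its likeness to PBS, leaving it out favours differences between the groups. Adjusted p-values and counts without it rest on TNF replicates 2 and 3 alone and are a description. Ifnar1 itself had 61 to 159 counts per library, and with no wild-type library this does not check the genotype. PC markers took a large share of each library, at 343223 to 421642 CPM in PBS, against 254099 to 553806 CPM in TNF for 10 genes led by Lyz1, the lysozyme of PCs. These genes did not move as a set. In TNF replicates 2 and 3, Mmp7 and Pla2g2a lay above every PBS library. Ang4, Itln1, Mptx2, Clps and Kit lay below every PBS library there, and Lyz1, Defa24 and Cd24a overlapped PBS. TNF replicate 1 was not simply like PBS in these markers. Lyz1, Defa24, Mmp7, Ang4 and Mptx2 lay above every PBS library in it, and Pla2g2a, Kit and Cd24a below. Itln1 and Clps lay within the PBS values in it. Clps had 2341, 1251 and 1231 CPM in PBS, against 2172, 260 and 467 CPM in TNF replicates 1 to 3.

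Members were first ordered by level in PBS, as CPM per kilobase of annotated exon sequence (CPM per kb). Tnfrsf1a led with 15.3 ± 4.71 CPM per kb (SD, n = 3), followed by Birc2 with 3.99 ± 0.393, Tradd with 3.34 ± 0.682 and Cflar with 3.29 ± 0.444 CPM per kb. Ripk1 had 2.51 ± 0.0959, Map3k7 2.16 ± 0.292, Traf3 1.71 ± 0.387, Traf2 1.09 ± 0.325 and Tnfrsf1b 0.991 ± 0.393 CPM per kb. Receptor message was thus mostly that of TNFR1 in PBS. The PBS values of neighbours did not overlap for Tnfrsf1a over Birc2, Cflar over Ripk1, Ripk1 over Map3k7 and Tnfrsf1b over Traf1. The other neighbours in the order overlapped. In the TNF group Tnfrsf1a again had the highest mean, at 16.5 ± 6.29 CPM per kb, Tnfrsf1b moved from rank 9 to rank 7 and Cflar moved from rank 4 to rank 8. The order leans on the exon length used, since with the longest transcript 6 of 10 members kept their rank and Cflar came to rank 2.

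**Figure D1:**
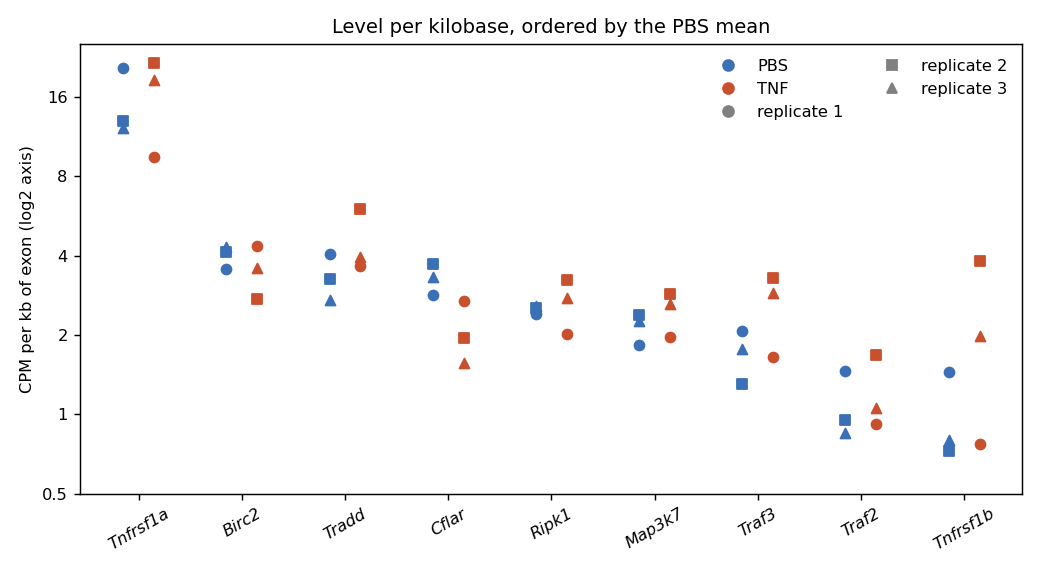
Levels of 9 members in CPM per kilobase of exon, on a log2 axis, for each PBS and TNF library, with members in the order of their PBS mean. Tnfrsf1a lies above the other members in all 6 libraries, and Traf1, at 0 to 2 counts, is not drawn.

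Traf1, which encodes an adaptor that joins TRAF2 on TNFR2 and lies at chr2:34831762-34851837, was close to absent. PBS replicates 1 to 3 gave 0, 2 and 1 counts, and each TNF library gave 0. It was not tested. In the 4 libraries without a Traf1 count, 3 counts being the limit that this allows, Traf2 was at least 32.0- to 101-fold higher per length, depending on the library.

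The comparison of TNF with PBS asked whether these transcripts differed 15 h after the injection. With all 6 libraries, 0 of the 9 tested members passed an adjusted p of 0.05 (termed 5% below) in the edgeR quasi-likelihood test, and the same was true of 0% of the 13026 genes tested. At an unadjusted p under 0.05 there was 1 member, Cflar, against 12.3% of all tested genes. It was lower after TNF, as were 521 of the 13026 genes at that p, and 0 members were higher, beside 8.25% of all genes. DESeq2 and limma-voom also called 0 members at 5%, and limma-voom with sample weights called 3, Tnfrsf1b, Traf3 and Cflar. On the log2 scale, 7 tested members had a fold change above 0 and 2 below, with a median of 0.17, beside a median of -0.00059 over all tested genes. The 95% intervals had half-widths of 0.50 to 1.21 on the log2 scale, which sets the size of change that 3 mice a group could resolve here. Without TNF replicate 1, 3 of the 9 members passed 5%, against 14.5% of 13660 genes tested. These were Tnfrsf1b and Traf3, higher after TNF, where 9.10% of all genes were, and Cflar, lower, where 5.40% were.

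**Figure D2:**
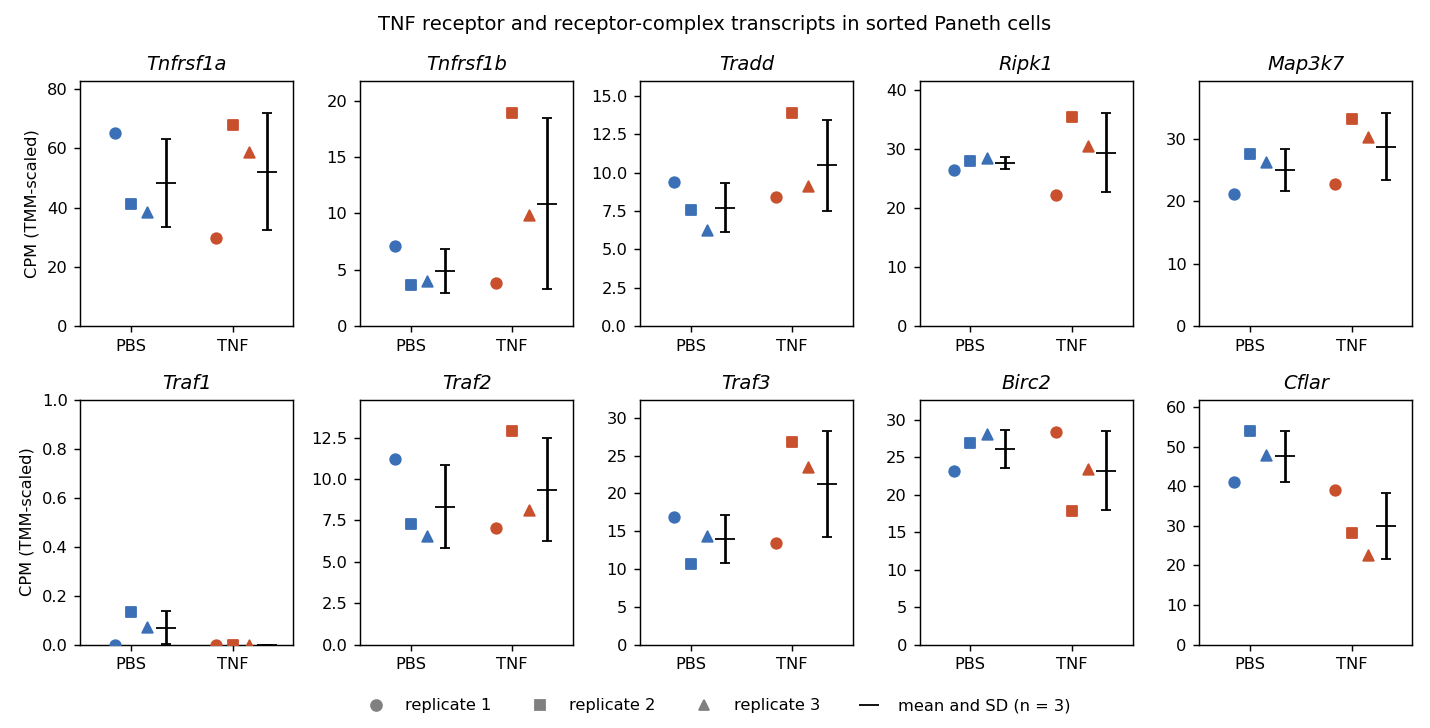
CPM of each member in the 3 PBS (blue) and 3 TNF (orange) libraries, with the symbol giving the replicate number and the bars the mean and SD of each group (n = 3). Cflar is the only member whose groups do not overlap, and TNF replicate 1 lies at or below the lowest of the other TNF libraries for 7 members other than Traf1, Birc2 and Cflar.

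Tnfrsf1b, the TNFR2 gene (chr4:144938938-144973477), had 7.14, 3.60 and 3.97 CPM in PBS, against 3.82, 18.9 and 9.83 CPM in TNF replicates 1 to 3. TNF replicates 2 and 3 lay above every PBS library, and TNF replicate 1 lay within the PBS values. The group means were 4.90 ± 1.95 and 10.9 ± 7.61 CPM (SD, n = 3), a log2 fold change of 1.16 with SE 0.54 (adjusted p = 0.429). The interval, 0.964- to 5.15-fold, spans both no change and a rise. Without TNF replicate 1 the log2 fold change was 1.58 with SE 0.38 (adjusted p = 0.0176), and without TNF replicate 2 it was 0.44. The gene had 45 to 387 counts per library, and the PBS libraries varied by 39.7% (coefficient of variation) where counting alone gives 12.0%.

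Tnfrsf1a, the TNFR1 gene (chr6:125325566-125339632), had 65.3, 41.0 and 38.4 CPM in PBS, against 29.8, 67.8 and 58.7 CPM in TNF. The groups overlapped, with TNF replicate 1 the lowest and TNF replicate 2 the highest of the 6 libraries. The log2 fold change was 0.11 with SE 0.33 (adjusted p = 0.913), and the interval reached from 0.647- to 1.81-fold. Without TNF replicate 1 it was 0.41 (adjusted p = 0.304), while leaving out PBS replicate 3 gave -0.07 and leaving out TNF replicate 2 gave -0.16. A direction can therefore not be given for this receptor.

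The ratio of the receptors within a library does not depend on how libraries are scaled. Per length, there were 0.0696, 0.0559 and 0.0658 Tnfrsf1b for each Tnfrsf1a in PBS and 0.0816, 0.178 and 0.106 in TNF replicates 1 to 3. All 3 TNF libraries lay above all 3 PBS libraries, TNF replicate 1 by the least. On the log2 scale the means were -3.98 ± 0.165 and -3.11 ± 0.571 (SD, n = 3), a difference of 0.86 or 1.82-fold (two-sided exact permutation p = 0.1, adjusted p = 0.15 over 3 ratios). A p of 0.1 is the smallest that 3 against 3 allows.

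**Figure D3:**
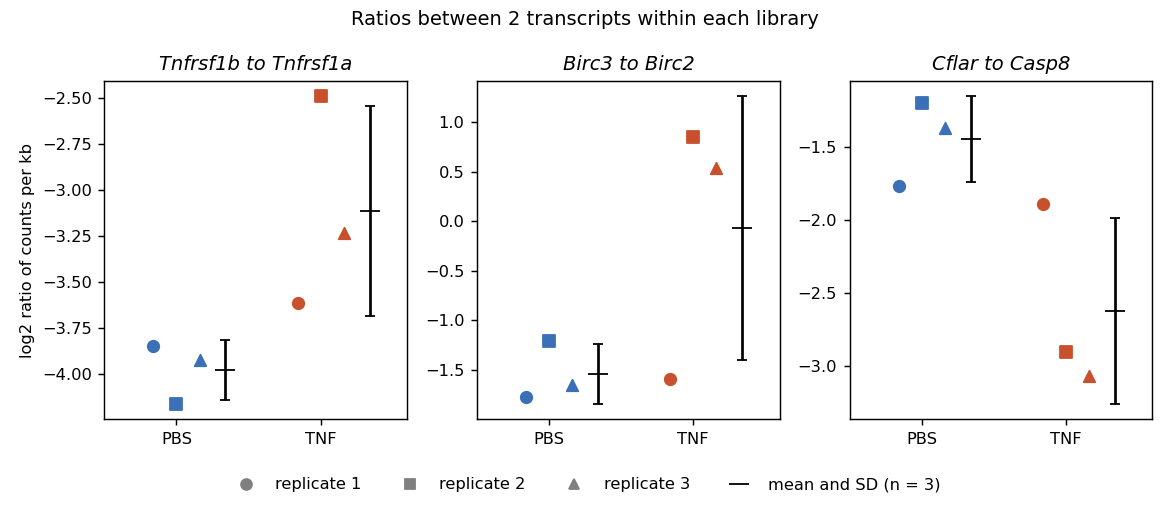
Ratios of Tnfrsf1b to Tnfrsf1a, Birc3 to Birc2 and Cflar to Casp8 within each library, as log2 of counts per kilobase, with the mean and SD of each group (n = 3). The groups do not overlap for the receptors and for Cflar to Casp8, and TNF replicate 1 is the TNF library nearest to PBS in all 3 panels.

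The adaptors and kinases recruited to TNFR1 showed small differences. Tradd, the death-domain adaptor (chr8:105984883-105996354), had 9.38, 7.54 and 6.25 CPM in PBS, against 8.41, 13.9 and 9.10 CPM in TNF. TNF replicate 2 was high, while the other TNF libraries lay within the PBS values. Tradd had a log2 fold change of 0.44 with SE 0.31 (adjusted p = 0.582), and 0.60 without TNF replicate 1 (adjusted p = 0.223). Ripk1, the kinase that joins the survival and death complexes (chr13:34186141-34221130), was the most even member in PBS, with 26.4, 27.9 and 28.4 CPM. In TNF it had 22.2, 35.5 and 30.4 CPM, so the TNF libraries lay on both sides of the PBS values. Its log2 fold change was 0.09 with SE 0.22 (adjusted p = 0.893), with an interval of 0.752- to 1.51-fold. Map3k7, the TAK1 gene (chr4:31963864-32051628), had 21.2, 27.6 and 26.3 CPM in PBS, against 22.8, 33.3 and 30.4 CPM in TNF. Its groups overlapped through TNF replicate 1, and its log2 fold change was 0.20 with SE 0.23 (adjusted p = 0.755), or 0.36 without that library (adjusted p = 0.276).

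Members that overlap a gene on the other strand are uncertain, because no source used here says whether counting used strand. Ripk1 shares 241 of its 10993 exon bases with Serpinb6a, a protease inhibitor gene with 1111 to 1399 counts in PBS and 1568, 8614 and 7621 counts in TNF replicates 1 to 3. Tnfrsf1b shares 184 of its 4950 exon bases with Gm68886, and Traf1 349 of 8872 with Gm74856, both not analysed here. Tradd shares 61 exon bases with Hsf4 and 6 with Fbxl8, and Tnfrsf1a shares 19 with Plekhg6, and these neighbours had 9 to 119 counts per library. The part of these neighbours in the members' counts was not tested.

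Among the TRAF adaptors, Traf3 (chr12:111132776-111233589) had 16.9, 10.6 and 14.4 CPM in PBS, against 13.4, 26.8 and 23.5 CPM in TNF. TNF replicates 2 and 3 lay above every PBS library and TNF replicate 1 within them, the same arrangement as for Tnfrsf1b. The log2 fold change was 0.61 with SE 0.31 (adjusted p = 0.451), or 0.87 with SE 0.24 without TNF replicate 1 (adjusted p = 0.0339). Traf2, the adaptor that carries the cIAP ligases to both receptors (chr2:25406097-25436987), had 11.2, 7.28 and 6.54 CPM in PBS, against 7.05, 12.9 and 8.13 CPM in TNF. The groups overlapped widely. For Traf2 the log2 fold change was 0.17 with SE 0.34 (adjusted p = 0.865) and 0.36 without TNF replicate 1 (adjusted p = 0.521), while leaving out PBS replicate 3 or TNF replicate 2 gave -0.02 or -0.17.

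Birc2, the gene of the ubiquitin ligase cIAP1 (chr9:7818227-7837120), had 23.2, 26.9 and 28.1 CPM in PBS, against 28.3, 17.8 and 23.4 CPM in TNF. Here TNF replicate 1 was the highest library and TNF replicate 2 the lowest. Its log2 fold change was -0.17 with SE 0.23 (adjusted p = 0.799), and -0.32 without TNF replicate 1 (adjusted p = 0.370). Birc3, its neighbouring paralog and a known NF-kB target, had 9.02, 15.6 and 11.9 CPM in PBS, against 12.5, 42.6 and 45.2 CPM in TNF. The log2 fold change of Birc3 was 1.46 (adjusted p = 0.293), or 1.87 without TNF replicate 1 (adjusted p = 5.51e-04). The ratio of Birc3 to Birc2 per length was 0.293, 0.434 and 0.319 in PBS and 0.332, 1.80 and 1.45 in TNF. In TNF replicates 2 and 3 Birc3 was thus the more abundant of the pair per length, and in the other 4 libraries Birc2 was. The log2 difference was 1.47, with overlapping groups (two-sided exact permutation p = 0.2, adjusted p = 0.2 over 3 ratios).

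Cflar (chr1:58750321-58798047) had 41.0, 53.9 and 47.9 CPM in PBS, against 39.0, 28.3 and 22.5 CPM in TNF. Every TNF library lay below every PBS library. Groups that do not overlap, in either direction, were found for 1 of the 9 tested members and for 16.9% of all tested genes. The means were 47.6 ± 6.41 and 29.9 ± 8.36 CPM (SD, n = 3), a log2 fold change of -0.67 with SE 0.24 (unadjusted p = 0.0216, adjusted p = 0.331). Leaving out TNF replicate 1 gave -0.88 with SE 0.21 (adjusted p = 0.0181). Casp8, the protease that cFLIP restrains, had 29.8, 26.4 and 26.3 CPM in PBS, against 30.8, 45.3 and 40.3 CPM in TNF. Its log2 fold change was 0.50 (adjusted p = 0.393), or 0.66 without TNF replicate 1 (adjusted p = 0.0380). Per length there were 0.294, 0.435 and 0.388 Cflar for each Casp8 in PBS and 0.269, 0.133 and 0.119 in TNF. All TNF libraries lay below all PBS libraries, TNF replicate 1 by little. The level of this ratio leans on the length used, 14458 exon bases for Cflar against 7313 in its longest transcript. The difference between the groups does not. The log2 difference was -1.18, or 0.442-fold (two-sided exact permutation p = 0.1, the smallest possible, adjusted p = 0.15 over 3 ratios).

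**Figure D4:**
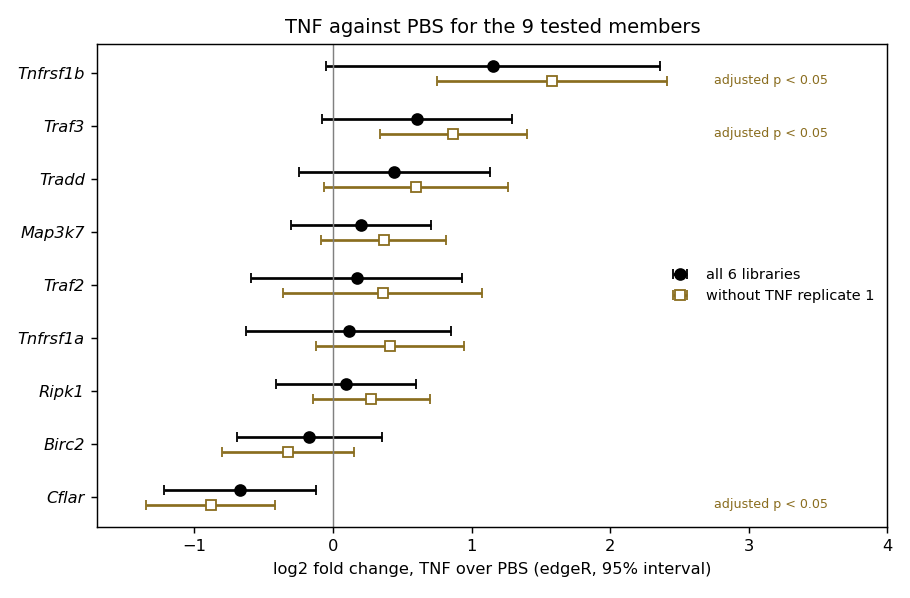
Log2 fold change of TNF over PBS with its 95% interval for the 9 tested members, from edgeR with all 6 libraries (filled) and without TNF replicate 1 (open). With all libraries the interval of Cflar alone leaves out 0, and without TNF replicate 1 Tnfrsf1b, Traf3 and Cflar pass an adjusted p of 0.05.

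In TNF replicates 2 and 3 together, 5 of 9 tested members lay wholly outside the PBS values, namely Tnfrsf1b, Traf3, Ripk1, Cflar and Map3k7, and so did 46.0% of all tested genes. TNF replicate 1 was within the PBS values for 5 of 9 members and for 45.2% of all tested genes. Both shares are near those of all genes and do not set the members apart.

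The rest of the pathway was described in 8 lists with 77 genes, of which 69 were tested. With all libraries 0 passed 5% in edgeR, 50 had a fold change above 0 and 19 below, and 18 had an unadjusted p under 0.05 (16 higher, 2 lower). Over all 13026 tested genes, 50.0% had a fold change above 0 and 12.3% an unadjusted p under 0.05 (8.25% higher, the rest lower). The median log2 fold change was 0.30 for the pathway genes and -0.00059 for all tested genes. At 5%, DESeq2 called 8 of the pathway genes, limma-voom 0 and limma-voom with sample weights 17. Among 73 tested without TNF replicate 1, 23 rose and 3 fell at 5%, where 9.10% of all genes rose and 5.40% fell. These genes were listed with earlier results known, so their counts are a description.

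**Figure D5:**
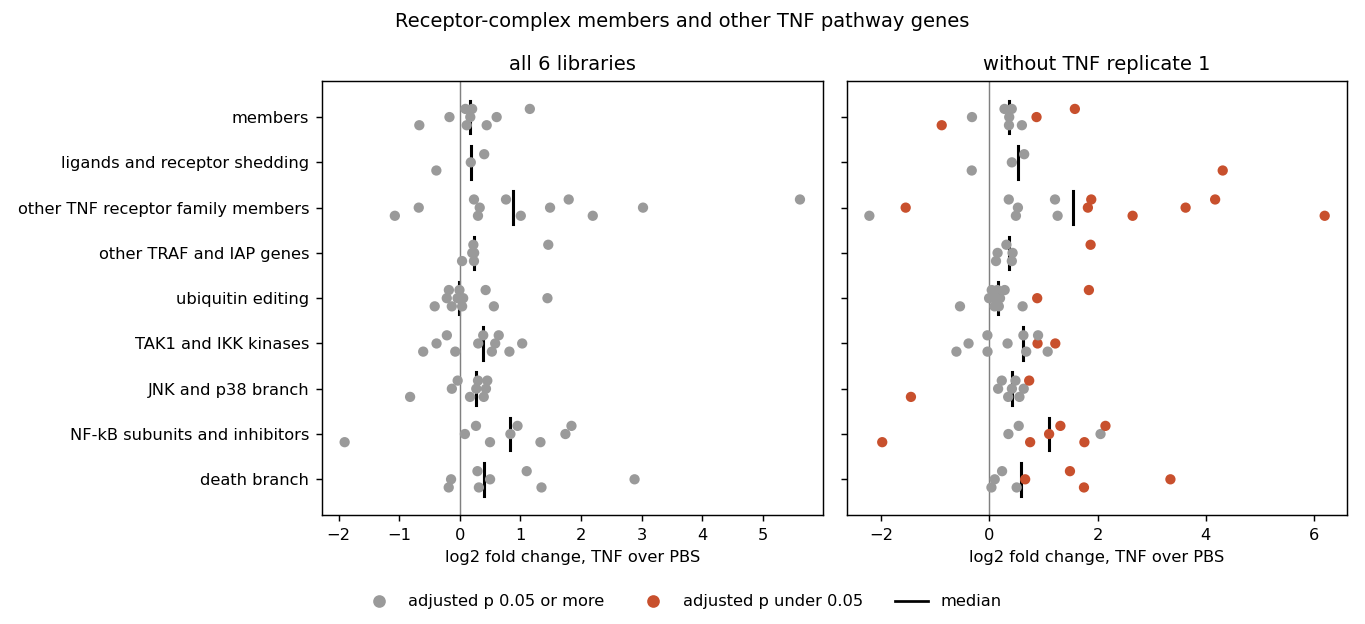
Log2 fold change of TNF over PBS for each tested gene of the member list and of the 8 pathway lists, with all 6 libraries and without TNF replicate 1. Orange points have an adjusted p under 0.05 and bars are list medians. Cd40, with 0 counts in all PBS libraries, has no point but counts in its median, and the NF-kB list sits mostly above 0 while the ubiquitin list is centred near 0.

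Of the 7 ligand and shedding genes, 3 were tested and none had an unadjusted p under 0.05 in edgeR. Tnf itself had 0.577, 0.134 and 0.661 CPM in PBS, against 0.680, 8.07 and 9.99 CPM in TNF, too few counts in TNF replicate 1 to be tested with all libraries. Without that library its log2 fold change was 4.31 (adjusted p = 5.77e-04). The shedding protease Adam17 had a log2 fold change of 0.18 and its partners Rhbdf1 and Rhbdf2 -0.39 and 0.40, with intervals that included 0. Among the 15 other receptors of the family, 4 were higher and 1 lower at an unadjusted p under 0.05 of 12 tested, and without TNF replicate 1, 7 rose and 1 fell of 14. Tnfrsf11b, which encodes the decoy receptor osteoprotegerin, had 0.144, 0.868 and 0.735 CPM in PBS, against 1.02, 32.9 and 53.5 CPM in TNF. Its log2 fold change was 5.62 (adjusted p = 0.270), or 6.20 without TNF replicate 1 (adjusted p = 1.13e-05). Tnfrsf12a, the TWEAK receptor gene, had 2.24, 3.47 and 3.09 CPM in PBS, against 3.91, 14.7 and 21.7 CPM in TNF. Eda2r, a receptor for ectodysplasin, had 5.55, 3.20 and 4.78 CPM in PBS, against 15.7, 21.7 and 9.50 CPM in TNF, and was one of the genes in which TNF replicate 1 also lay above PBS. Cd40, a receptor best known from B cells and not named by the rule for pathway genes, had 0 counts in every PBS library and 3, 77 and 104 in TNF. The mean CPM of Cd40 over TNF replicates 2 and 3 was at least 28.6-fold higher than 3 counts per PBS library would give. The median of this list without TNF replicate 1, 1.54, is the same with Cd40 set to that bound.

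Of 6 other TRAF and IAP genes, all 6 had a fold change above 0, with a median of 0.23. Birc3 had an unadjusted p under 0.05, and it alone rose without TNF replicate 1. Traf7 and Xiap had log2 fold changes of 0.22 and 0.23. The ubiquitin-editing list was evenly split, with 5 genes above and 6 below 0 of 11 tested. Tnfaip3, which encodes the A20 enzyme that trims ubiquitin from RIPK1, had 8.22, 7.61 and 8.89 CPM in PBS, against 9.09, 26.3 and 31.9 CPM in TNF. Its log2 fold change was 1.45 (adjusted p = 0.278), or 1.84 without TNF replicate 1 (adjusted p = 3.49e-04), and its partner gene Tnip1 had 0.56 and 0.88 (adjusted p = 0.0175 without TNF replicate 1).

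Among 11 TAK1 and IKK genes, Ikbkg, the NEMO gene, had an unadjusted p under 0.05 with a log2 fold change of 0.53. Without TNF replicate 1, 2 of the 11 rose, Ikbkb and Ikbke, and Ikbke had a log2 fold change of 1.22 (adjusted p = 0.00541). Chuk, the IKK-alpha gene, had a log2 fold change of -0.39 with an adjusted p of 0.218 without that library. In the JNK and p38 branch, none of 9 genes had an unadjusted p under 0.05. Without TNF replicate 1, Map2k3 rose by 0.73 on the log2 scale (adjusted p = 0.0329) and Map2k6, like Map2k3 a kinase upstream of p38, fell by 1.45 (adjusted p = 0.00112). Map2k6 had 33.3, 36.8 and 40.7 CPM in PBS, against 36.3, 13.5 and 13.1 CPM in TNF.

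The NF-kB list held 9 genes, of which 5 were higher and 1 lower at an unadjusted p under 0.05, with a median log2 fold change of 0.83. The same number rose and fell at 5% without TNF replicate 1, but the 5 that rose were not all the same genes. Relb, an NF-kB subunit of the alternative pathway, had a log2 fold change of 1.74, or 2.14 without TNF replicate 1 (adjusted p = 1.32e-04). Nfkbia, the inhibitor that NF-kB induces on itself, had 50.2, 33.1 and 33.2 CPM in PBS, against 43.1, 60.2 and 104.5 CPM in TNF. Bcl3, an atypical inhibitor family member, went the other way. It had 18.2, 11.3 and 14.5 CPM in PBS, against 4.42, 2.74 and 4.67 CPM in TNF, a log2 fold change of -1.90 (adjusted p = 0.270), and all 3 TNF libraries lay below PBS.

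The death branch held 8 genes, of which 4 were higher at an unadjusted p under 0.05, and the same number rose at 5% without TNF replicate 1. Among them were Casp8, the necroptosis kinase gene Ripk3 and its effector Mlkl. Mlkl had 1.23, 1.13 and 1.47 CPM in PBS, against 2.63, 14.1 and 11.6 CPM in TNF. The log2 fold change of Mlkl was 2.88 (adjusted p = 0.270), or 3.34 without TNF replicate 1 (adjusted p = 1.54e-04). Ripk3 had 10.2, 8.34 and 9.40 CPM in PBS, against 8.41, 30.3 and 21.1 CPM in TNF. For Ripk3, TNF replicate 1 was at the level of PBS, while for Mlkl and, by little, Casp8 it lay above every PBS library.

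Markers of other cells that a PC gate could hold were also read. In sorted bulk RNA, fewer cells of a type and less RNA per cell cannot be told apart. The 4 stem cell markers summed to 2123 to 2590 CPM in PBS and, in TNF replicates 1 to 3, to 4095, 361 and 373 CPM, most of it Olfm4. Olfm4, Ascl2 and Smoc2 lay below every PBS library in TNF replicates 2 and 3, while Lgr5 overlapped PBS, with 54.0, 68.9 and 76.8 CPM there and 69.0, 68.3 and 42.2 CPM after TNF. The 6 enterocyte markers summed to 94.6 to 116 CPM in PBS and to 101, 19.7 and 24.2 CPM after TNF, most of it Fabp2 in PBS and in TNF replicate 1. They did not move as a set. Apoa1, Apoa4, Sis and Alpi lay below PBS in all 3 TNF libraries, so that Apoa1 had 14.9, 8.74 and 8.52 CPM in PBS and 0.425, 0.440 and 0 CPM after TNF. Fabp1 overlapped between the groups, with 0.577 to 15.6 CPM in PBS and 3.06 to 10.7 CPM after TNF. Goblet markers ranged from 10861 to 11780 CPM in PBS, against from 6899 to 14000 CPM in TNF, most of it Spink4. Their genes differed from that sum. Fcgbp, Tff3, Clca1 and Zg16 lay below every PBS library in TNF replicates 2 and 3, while Muc2 and Spink4 overlapped PBS. In TNF replicate 1, Tff3, Clca1 and Spink4 lay above every PBS library, Muc2 lay below, and Fcgbp and Zg16 lay within the PBS values. Tuft markers ranged from 399 to 1392 CPM in PBS and from 477 to 925 CPM in TNF. Enteroendocrine markers ranged from 23.4 to 88.2 CPM in PBS and from 21.8 to 99.0 CPM in TNF. The sum of 17 immune markers was 25.9 to 60.0 CPM in PBS and 47.2 to 48.1 CPM after TNF, most of it Lyz2 and Ptprc, whose groups overlapped. Single myeloid genes differed from that sum. Cd14 had 4.33, 1.54 and 5.73 CPM in PBS and 4.08, 9.34 and 10.9 CPM after TNF (adjusted p = 0.443, or 0.0636 without TNF replicate 1). S100a9, a neutrophil gene, had 0 counts in all PBS libraries and 0, 26 and 13 counts in TNF replicates 1 to 3 (adjusted p = 0.0253 without TNF replicate 1), and S100a8 had 0 in PBS and at most 4 counts after TNF. Of the T cell, cytotoxic and plasma cell genes, Cd3g, Cd8a, Gzmb and Jchain were at 0 in all libraries. Cd3e had 4, 0 and 0 counts in PBS and 2, 0 and 0 after TNF. Itgae had 0, 0 and 10 counts in PBS and 4, 3 and 4 after TNF. The cytotoxic gene Gzma had 0 counts in all PBS libraries and 0, 4 and 5 in TNF replicates 1 to 3. Markers of endothelial, stromal and red blood cells summed to at most 0.667 CPM, with Cdh5, Hba-a1 and Hbb-bs at 0. The part of the stem cell, enterocyte, goblet and immune markers in the values of Tnfrsf1b, Traf3, Cflar and the pathway genes was not tested.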

How the data were processed

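RNA from sorted PCs was measured in 3 PBS and 3 TNF libraries, grouped by their labels. The authors deposited 1 table of raw counts per Ensembl gene, with 0 unused sample columns. The submitters' processing notes name FastQC, Trimmomatic 0.39, STAR 2.7.10a, DESeq2 and build mm39, without their roles. Not given in the sources used here were the counting tool, annotation release, strand setting and handling of multi-mapped reads. Per the labels, total RNA was sequenced single-end on an Element AVITI.

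Identifiers were matched to the GENCODE annotation of GRCm39 (54749 of 55414; the rest held 0.0193% of counts). Positions are GRCm39, 1-based. Totals were 12747484 to 17039511 counts. Genes that passed filterByExpr (at least 10 counts, 15 in total) were scaled by TMM and tested in edgeR 4.0.16 (R 4.3.3) with the two-sided quasi-likelihood test, with group as the only term and Benjamini-Hochberg adjustment over all genes. The kept genes held 99.8% of counts. SE is the log2 fold change over the square root of F. The fit was also run on simulated counts. These held no TNF library set apart from its group, so that run does not bear on the effect of TNF replicate 1. Ratios within libraries used exact permutation tests.

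Alternatives were RLE factors, library size, no filter, a mean CPM of at least 1, DESeq2 1.42.0, limma-voom (limma 3.58.1) with and without sample weights, a replicate block, leaving out each library and a 10% threshold. All members were named, and per pathway list the 3 genes with the smallest p, plus Birc3, Tnfaip3, Nfkbia, Casp8, Ripk3, Mlkl and Tnf. Exceptions are Cd40, Ikbkb, Serpinb6a, Hsf4, Fbxl8, Plekhg6, the genes Gm68886 and Gm74856, and single markers, named after their values were seen. A gene that the rule names is not reported here. The members, gene lists, tests and motif were chosen with earlier results of these data known. Promoter windows came from RefSeq (GRCm38.p6), and each one printed matched GRCm39 once.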

Additional observations from a re-analysis of the deposited data

How the results depend on the processing

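Over all genes, 0 passed 5% under the settings other than those that follow. Without a low-count filter 690 genes, 0 members and 15 pathway genes passed, with DESeq2 242 genes (206 higher, 36 lower), 0 members and 8 pathway genes, and with limma-voom sample weights 1501 genes (919 higher, 582 lower), 3 members (Tnfrsf1b, Traf3 and Cflar) and 17 pathway genes. Leaving out each library in turn gave 0 to 1980 genes, 0 to 3 members and 0 to 26 pathway genes, and the highest counts were those without TNF replicate 1. The adjusted p ranged over the alternatives from 0.0176 to 0.919 for Tnfrsf1b, from 0.0339 to 0.920 for Traf3 and from 0.0167 to 0.919 for Cflar.

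Leaving out a library turned the sign of Tnfrsf1a (range -0.16 to 0.41) and Traf2 (-0.17 to 0.44) without PBS replicate 3 or TNF replicate 2, and of Ripk1 (-0.10 to 0.28), Adam17 (-0.079 to 0.41) and Traf7 (-0.013 to 0.41) without TNF replicate 2. For single members under the alternatives, 115 values kept direction and side of 5%, 6 moved past 5% and 5 changed sign. With the longest transcript in place of the exon union, 6 of 10 members kept their rank. Leaving out a library gave log2 differences of 0.55 to 1.12 for Tnfrsf1b to Tnfrsf1a, 1.02 to 2.23 for Birc3 to Birc2 and -1.54 to -0.96 for Cflar to Casp8. The Traf1 to Traf2 ratio could not be computed on the log2 scale because Traf1 had 0 counts in 4 libraries. With the replicate block, 0 genes and 0 members passed 5% and 1395 genes had an unadjusted p under 0.05, and the ratios had p = 0.25 in an exact paired permutation test, the smallest 3 pairs allow. Same-numbered libraries did not deviate together (correlations of -0.087 to 0.061), so the numbers were not taken to pair mice. Scaling by library size alone moved the median of all genes to -0.11. The causes were not tested.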
